A study of Mus musculus with 33 samples.

Results

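IGKV2-137 and IGKV1-135 are the V kappa genes with the highest position numbers in the mouse Igk immunoglobulin light-chain locus, except for IGKV1-136 between them, which was listed at 0 in all 20 libraries. They were chosen by name from the 163 V kappa genes listed in every Igk library, so that the pair comprises 2 of 163 genes. The rule names them and uses no measured value, but it was set with earlier results of these data known. VDJ-seq, which captures joined V and J segments from genomic DNA with J kappa primers, was applied to B cell progenitors sorted ex vivo from the bone marrow of C57BL/6 mice that were 4 to 5 weeks old. Pro-B cells were analysed with 6 Wapl+/+ and 6 Wapl(∆P1,2/∆P1,2) libraries, and pre-B cells with 4 libraries of each genotype. Pro-B cells were sorted as Kit+CD25- and pre-B cells as Kit-CD25+ cells, both negative for surface IgM and IgD. The Wapl(∆P1,2/∆P1,2) mice lack on both alleles the Pax5-binding site P1 of the Wapl promoter and a downstream region with a second Pax5 site, and their early B cells express more Wapl. The labels do not say whether libraries came from separate mice, so that p-values measure the spread between libraries, which may be partly technical.

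An Igk light chain gene is assembled when the RAG recombinase joins 1 of many V kappa genes to a J kappa element, cutting at a recombination signal next to each. The signal consists of a conserved heptamer and nonamer separated by a spacer. V kappa genes lie in both orientations, and those in the orientation of the J kappa elements are joined by deletion of the DNA between them, whereas the others are joined by inversion. Wapl releases cohesin from chromatin, and cohesin extrudes the loops that bring distant V genes close to the J elements. Most Igk rearrangement takes place in pre-B cells, after the heavy chain gene has been assembled in pro-B cells. The study asked whether the joining of V kappa genes also needs the repression of Wapl. It reported Wapl mRNA as equally low at both stages, but more Wapl protein in pre-B than in pro-B cells.

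Both genes are on chromosome 6 in the forward orientation, which is that of Igkj1, the first J kappa element (NCBIM37 assembly, mm9, Gencode annotation). Igkv2-137 (ENSMUSG00000076501.1) occupies chr6:67505630-67506210, with a leader exon at 67505630-67505678 and a V exon at 67505898-67506210. Igkv1-135 (ENSMUSG00000076502.1) occupies chr6:67559739-67560502, with a leader exon at 67559739-67559787 and a V exon at 67560190-67560502. Both V exons are 313 bases long. Igkv2-137 lies 3166 kb and Igkv1-135 lies 3112 kb before Igkj1. A gap of 53.5 kb separates the pair, and a gap of 110.2 kb follows Igkv1-135 before the next annotated V gene, Igkv17-134. The latter gap is the third longest of 101 gaps between annotated V genes of the locus, whose median is 24.3 kb.

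The last 60 bases of each V exon and the adjoining recombination signal are shown because recombination cuts at the border between them. Capitals mark the heptamer and the nonamer.
Igkv2-137, chr6:67506151-67506238, forward strand: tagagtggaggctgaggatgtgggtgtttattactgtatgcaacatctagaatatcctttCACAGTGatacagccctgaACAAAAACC
Igkv1-135, chr6:67560443-67560530, forward strand: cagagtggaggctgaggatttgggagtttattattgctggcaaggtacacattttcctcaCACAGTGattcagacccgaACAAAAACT
Both genes carry the heptamer CACAGTG, as do 76 of 102 annotated V genes of the locus (74.5%), read on each gene's own strand directly after the V exon. The nonamer ACAAAAACC at the expected distance of 12 bases is present in Igkv2-137 and in 25.5% of the annotated V genes. Counted from 1 at the 5′ end and with Igkv2-137 as the reference, Igkv1-135 differs from it by C9T in the nonamer and by A3T, C7A and T10C in the spacer. Its nonamer occurs in 2 of 102 annotated V genes. The signals of the next V kappa 1 genes toward J kappa and of IGKV19-93, the gene with a higher mean share than IGKV1-135 in mutant pro-B cells, are shown for comparison.
Nearest V kappa 1 gene, chr6:67675656-67675683, forward strand: CACAGTGatacagactctaTCAAAAACT
Igkv1-132, chr6:67710408-67710435, forward strand: CACAGTGatacagaccctaTCAAAAACT
Igkv19-93, chr6:68686263-68686290, reverse strand: CACAGTGatacaaatcataACAAAAACC
All 3 share the heptamer with both distal genes and differ from Igkv1-135 in the spacer and the nonamer. The octamer ATTTGCAT, the binding motif of Oct transcription factors in immunoglobulin promoters, lies at the same distance from both start codons, with its first base 106 bases upstream. It is shown in capitals within 30 bases of each promoter.
Igkv2-137, chr6:67505512-67505541, forward strand: accaagcaggggATTTGCATattgctccct
Igkv1-135, chr6:67559621-67559650, forward strand: acagaccagaacATTTGCATattgttccct
Searched on both strands of the 250 bases before the leader exon, the octamer was present in 62 of 102 annotated V genes (60.8%), so that neither it nor the heptamer is particular to the pair. A match to a motif is a description and not a test of binding or cutting. None of 956 H3K27ac peaks on chromosome 6, called in Rag1(Cre/Cre) pro-B cells as a mark of active chromatin, lay within 100 kb of either gene. The nearest peak was 285 kb outside the locus from Igkv2-137, and toward J kappa the next was 2429 kb from Igkv1-135. From Igkv2-137 to just past Igkj1 there were 3 peaks, and none overlapped an annotated V gene. The lack of a peak at the gene is therefore not particular to the pair. The share of V genes without a peak within 100 kb was not counted.

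The V exon of Igkv1-135 is 96.5% identical to that of the nearest V kappa 1 gene beyond the gap, and the last 60 bases differ at 3 positions. This gene had mean shares of at most 0.476% in the 4 groups. The closest V exon to that of Igkv2-137 is 87.6% identical, in Igkv2-109. How sequences that matched several V genes were assigned is not given in the sources used here. Within a library, all deposited values were multiples of 1/6 of a common step, taken as the largest step in which at least 80% of the values above 0 were whole within 0.01 of a step, and values of both genes were whole numbers of steps in every library. The V kappa genes of a library summed to between 41076 and 56642 steps in Wapl+/+ pre-B, 27178 and 56236 in mutant pre-B, 1525 and 4549 in mutant pro-B and 164 and 2514 in Wapl+/+ pro-B cells. Whether a step is a single joint is not stated, and no counting interval was therefore derived. The library with 164 steps, Wapl+/+ pro-B replicate 2, held 2 steps of IGKV2-137 and 26 of IGKV1-135 and listed 102 genes at 0. Calls of the pair that change without this library are given with and without it. Percentages below are shares of all V kappa rearrangements in a library, made by dividing each deposited value by the sum over all V kappa genes. They describe the composition of the sorted population and say nothing of the number of rearrangements per cell.

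IGKV1-135 was the most used V kappa gene of Wapl+/+ cells at both stages, and its share was highest in pro-B cells. In Wapl+/+ pro-B cells it took between 9.23% and 15.9% of all V kappa rearrangements, with a median of 10.6%, and ranked first in each of the 6 libraries. In mutant pro-B cells it took between 4.37% and 7.62%, with a median of 6.65%, and ranked from 2 to 4, behind IGKV19-93 in every library and behind IGKV10-95 and IGKV1-110 as well in replicates 3 and 5. In Wapl+/+ pre-B cells the 4 libraries gave 4.56%, 4.50%, 4.16% and 4.50%, all at rank 1. In mutant pre-B cells they gave 4.51%, 5.24%, 5.05% and 4.69%, the last of these at rank 2 behind IGKV19-93. The means were thus 11.3% ± 2.48 (SD, n = 6), 6.26% ± 1.27 (SD, n = 6), 4.43% ± 0.183 (SD, n = 4) and 4.87% ± 0.330 (SD, n = 4). In this order of levels, neither the comparison of mutant pro-B with mutant pre-B cells nor that of mutant with Wapl+/+ pre-B cells passed its test.

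IGKV2-137 was used far less, and its levels lay closer together. It took between 1.21% and 1.79% in Wapl+/+ pro-B cells (median 1.49%) and between 0.694% and 1.37% in mutant pro-B cells (median 0.941%). The Wapl+/+ pre-B libraries gave 1.04%, 1.11%, 1.02% and 1.09%, and the mutant pre-B libraries 1.05%, 1.17%, 1.22% and 1.10%. The means were 1.45% ± 0.216 (SD, n = 6) in Wapl+/+ pro-B, 0.949% ± 0.233 (SD, n = 6) in mutant pro-B, 1.07% ± 0.0406 (SD, n = 4) in Wapl+/+ pre-B and 1.14% ± 0.0740 (SD, n = 4) in mutant pre-B cells. Its rank among all genes ran from 13 to 23 in Wapl+/+ pro-B, from 22 to 49 in mutant pro-B and from 35 to 45 in pre-B cells. Among the 3 lower means, neither the comparison of the mutant with Wapl+/+ pre-B cells nor that of mutant pro-B with mutant pre-B cells passed its test. Mutant pro-B cells were not tested against Wapl+/+ pre-B cells. Together, both genes took 12.8% ± 2.34 (SD, n = 6) of the rearrangements in Wapl+/+ pro-B, 7.21% ± 1.47 (SD, n = 6) in mutant pro-B, 5.50% ± 0.209 (SD, n = 4) in Wapl+/+ pre-B and 6.01% ± 0.395 (SD, n = 4) in mutant pre-B cells.

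**Figure D1:**
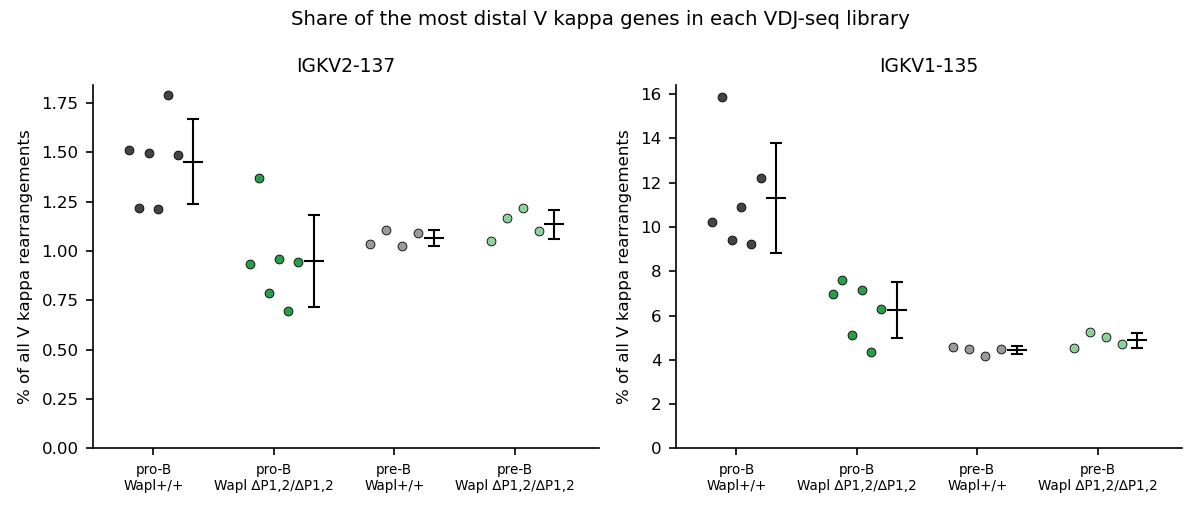
Share of IGKV2-137 (left) and IGKV1-135 (right) in percent of all V kappa rearrangements, with 1 point per library and the mean ± SD beside each group. The Wapl+/+ pro-B libraries of IGKV1-135 lie at 9.23% or above and the mutant pro-B libraries at 7.62% or below, while the pre-B groups lie between 4.16% and 5.24%.

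In pro-B cells the shares of both genes were lower in the mutant. The share of IGKV1-135 was 5.05 percentage points lower, and all 6 mutant libraries were below all 6 Wapl+/+ libraries, a separation in this direction that occurred in 6.73% of the 104 tested genes. Its log2 fold change was -0.85 (SE 0.17, limma on log2 of the percentage plus 0.05, adjusted p = 0.00293), and the exact two-sided permutation test gave p = 0.00216, the smallest that 6 against 6 libraries allow (924 arrangements). IGKV2-137 was lower by a log2 fold change of -0.61 (SE 0.21, limma adjusted p = 0.0398, exact two-sided permutation p = 0.00649). 5 of its 6 mutant libraries lay below all Wapl+/+ libraries, and the exception, replicate 2 with 1.37%, lay above Wapl+/+ replicates 2 and 4. Both genes were thus among the called ones, beside a background of 26% of the tested genes called in either direction and 13.5% called lower. The split of the calls moved with the libraries and the scale, from 14 lower and 13 higher to 32 lower (30.8%) and 17 higher without Wapl+/+ replicate 2, to 5 lower and 17 higher with each library centred on its median gene, and to 1 lower and 24 higher with the values as deposited. Over the tested genes the log2 fold changes had a median of -0.26, so that IGKV1-135 and IGKV2-137 were at -0.59 and -0.35 relative to it. Both directions held within each series of experiment numbers, with differences for IGKV1-135 of -5.26 points in the earlier and -4.84 points in the later series, and for IGKV2-137 of -0.378 and -0.631 points. The labels do not say that these series are batches.

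The call for IGKV2-137 was close to the threshold. It was kept when Wapl+/+ replicate 2, Wapl+/+ replicate 4 or mutant replicate 2 was left out, and it was lost without any other single library (adjusted p between 0.0615 and 0.0920). Both calls were lost when each library was centred on its median gene, with log2 fold changes of -0.52 for IGKV1-135 (limma adjusted p = 0.181) and -0.27 for IGKV2-137 (limma adjusted p = 0.456).

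The lower shares were not seen in the values as deposited. These are percentages of a total that is not named, and they summed over all V kappa genes to 0.132% ± 0.0487 (SD, n = 6) in Wapl+/+ pro-B cells and to 0.255% ± 0.0811 (SD, n = 6) in mutant pro-B cells, 1.92 times as much (exact two-sided permutation test, p = 0.0152, adjusted p = 0.0260 over 12 such comparisons). On this scale IGKV1-135 was at 0.0142% ± 0.00356 (SD, n = 6) in Wapl+/+ and at 0.0165% ± 0.0070 (SD, n = 6) in mutant pro-B cells. The groups overlapped, from 0.00808% to 0.0180% and from 0.00661% to 0.0238%, and the log2 fold change of 0.12 had the opposite sign (limma adjusted p = 0.83). IGKV2-137 likewise had a log2 fold change of 0.32 (limma adjusted p = 0.640). In mutant pro-B cells the shares of both genes were lower, while the V kappa sum as deposited was larger. A change in their own level as deposited was not detectable at this spread. The part of the larger sum in the lower shares was not tested. In pre-B cells the deposited totals of 5.72% ± 0.820 (SD, n = 4) and 5.83% ± 0.731 (SD, n = 4) overlapped.

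**Figure D2:**
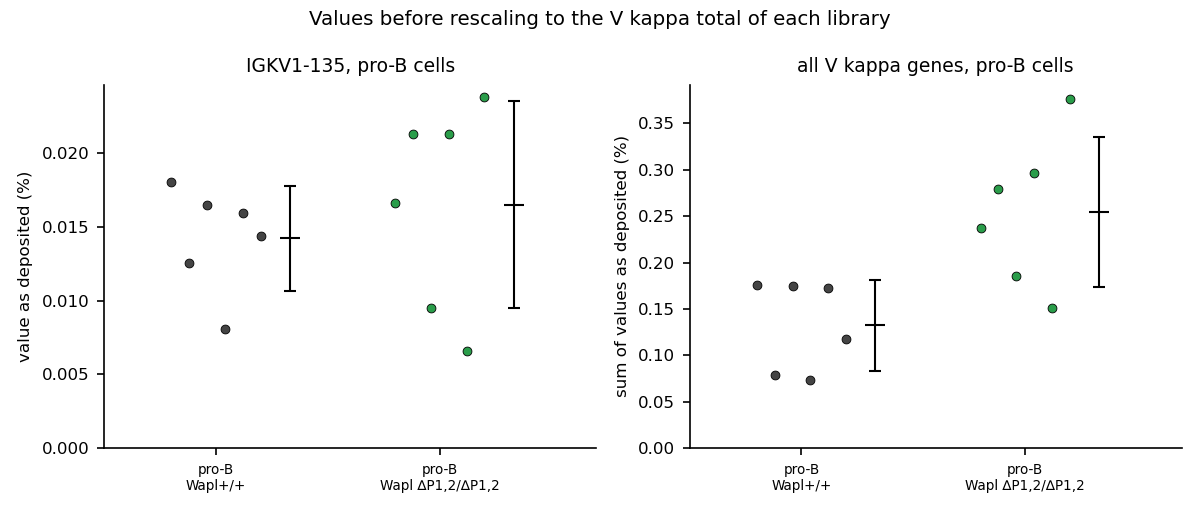
Values as deposited in pro-B cells, in percent of a total that is not named, for IGKV1-135 (left) and summed over all 163 V kappa genes (right), with 1 point per library and the mean ± SD. IGKV1-135 overlaps between the genotypes at means of 0.0142% and 0.0165%, whereas the sums have means of 0.132% and 0.255%.

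In pre-B cells neither gene passed the test, although 72 of 107 tested genes did (67.3%, limma adjusted p below 0.05), 23 of them higher and 49 lower in the mutant. IGKV1-135 was 0.442 percentage points higher in the mutant, with a 95% interval of the log2 fold change from -0.01 to 0.28 (limma adjusted p = 0.0861). 3 of 4 mutant libraries were above all Wapl+/+ libraries, and the exact two-sided permutation test gave p = 0.0571, where 4 against 4 libraries cannot go below 0.0286. The call turned when mutant replicate 1, at 4.51% the lowest of its group, was left out (log2 fold change 0.17, limma adjusted p = 0.0401). For IGKV2-137 the interval ran from -0.07 to 0.25 (limma adjusted p = 0.314, exact two-sided permutation p = 0.143). Rises of both genes beyond 1.21-fold were outside these intervals, as were falls of either gene below 0.950 of the Wapl+/+ level. Relative to the median over the tested genes, -0.18, the log2 fold changes of IGKV1-135 and IGKV2-137 were at 0.31 and 0.27.

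The difference between the genotype effects at the pro-B and pre-B stages was then tested directly. For IGKV1-135 the genotype effect in pro-B cells was lower than that in pre-B cells by a log2 difference of -0.98 (SE 0.21, limma interaction term, adjusted p = 0.0110). It was 1 of 2 genes called among 106 (1.89%), the other being IGKV6-23, which is named after its values were seen, and without Wapl+/+ pro-B replicate 2 there were 10. The call for IGKV1-135 was lost when libraries were centred on their median gene (-0.58, limma adjusted p = 0.419) and in the earlier (-0.93) and later series alone (-1.04). For IGKV2-137 the difference was -0.69 (SE 0.25), which did not pass the limma test over all genes (adjusted p = 0.218) unless Wapl+/+ pro-B replicate 2 was left out (-0.74, adjusted p = 0.0429). When the cell types were permuted within each genotype, 44100 arrangements gave exact two-sided p-values of 0.0482 for IGKV1-135 and 0.00315 for IGKV2-137. These arrangements assume no stage difference in either genotype, so that the p-values do not test the difference of the genotype effects alone. A stage difference shared by both genotypes also widens the spread of the permuted values. With the values as deposited, the differences were -0.046 for IGKV1-135 (limma adjusted p = 0.951) and 0.19 for IGKV2-137 (limma adjusted p = 0.869).

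Between the stages, IGKV1-135 was higher in Wapl+/+ pro-B than in Wapl+/+ pre-B cells. Its share was 2.55 times as high in pro-B as in pre-B cells, and all 6 pro-B libraries were above all 4 pre-B libraries, as was the case for 10.5% of the 105 tested genes. The log2 fold change of 1.32 (SE 0.15, limma adjusted p = 0.00011) was the largest rise among the tested genes, where 10.5% were called higher and the median was -0.65 (14.2% and -0.47 without pro-B replicate 2). The calls were 11 higher and 9 lower, with centred libraries 15 higher and none lower, and without pro-B replicate 2 they were 15 higher and 29 lower. The exact two-sided permutation test gave p = 0.00476, the smallest that 6 against 4 libraries allow (210 arrangements). The 6 pro-B libraries of IGKV2-137 were above the 4 pre-B libraries as well, with a log2 fold change of 0.42 (SE 0.16, limma adjusted p = 0.0852, exact two-sided permutation p = 0.00952). Without pro-B replicate 2 the value was 0.47 (limma adjusted p = 0.0249). Within the later series, the only one whose experiment numbers run through both stages, the shares of IGKV1-135 were 10.8% in 3 pro-B and 4.33% in 2 pre-B libraries, and those of IGKV2-137 differed by 0.439 percentage points in the same direction, without overlap.

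In mutant cells neither gene passed the test between the stages. IGKV1-135 had a log2 fold change of 0.33 between pro-B and pre-B cells (SE 0.16, limma adjusted p = 0.0904, exact two-sided permutation p = 0.105), and 4 of 6 pro-B libraries were above all pre-B libraries while 1, replicate 5 with 4.37%, was below all of them. Leaving out this library or pro-B replicate 3, with 5.11%, brought a call (limma adjusted p = 0.0171 and 0.0449). IGKV2-137 had a log2 fold change of -0.28 (SE 0.17, limma adjusted p = 0.176, exact two-sided permutation p = 0.148). Without pro-B replicate 2, the highest of its group, it was called lower (-0.38, limma adjusted p = 0.0317). With libraries centred on their median gene the direction turned (0.33). Neither gene was among the 54% of 100 tested genes called between the stages, 12 higher and 42 lower, a split that became 33 higher and 19 lower with centred libraries. On the deposited scale all tested V kappa genes were called lower in pro-B than in pre-B cells of the same genotype, and IGKV1-135 was at 0.253% and 0.284% in Wapl+/+ and mutant pre-B cells, 17.7 and 17.2 times its pro-B level.

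The distal pair was then set beside its nearest neighbours toward J kappa, the 15 genes with position numbers of at least 120 and below 134. IGKV17-134 and IGKV14-134-1, which carry the next number, were listed at 0 in all 20 libraries and are not among them. Most of this region was picked out by the study on these libraries, so that its direction is not independent evidence. In pre-B cells, 11 of its 13 tested genes were lower in the mutant, 1 was higher and 1 was not called, where 45.8% of all tested genes were lower and 21.5% higher, and their median log2 fold change was -0.81 beside -0.18 for all tested genes. IGKV1-132 fell most (log2 fold change -1.38, limma adjusted p = 1.57e-08), and IGKV9-123 was the gene that rose (0.30, limma adjusted p = 0.00501). With the values as deposited, 10 neighbours were lower and none was called higher, where 29.0% of all tested genes were lower and 15.9% higher. The tested gene next to the pair, the nearest V kappa 1 gene whose signal is shown above, was already among the lower ones, and it lies beyond the gap of 110.2 kb. In pro-B cells, 6 of 13 neighbours were lower and 7 were not called, beside 13.5% of all tested genes that were lower, with a median of -1.27 beside -0.26. Without Wapl+/+ replicate 2, 11 of the 13 were lower, beside 30.8% of all tested genes. With libraries centred on their median gene 3 were lower, beside 4.81%. With the values as deposited none was called, beside 0.962% of all tested genes lower and 23.1% higher (median -0.37 beside 0.52 for all tested genes). The same nearest V kappa 1 gene had the largest fall (-2.15, limma adjusted p = 0.0234), and IGKV9-124, the least lowered, was at -0.08 (limma adjusted p = 0.921).

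**Figure D3:**
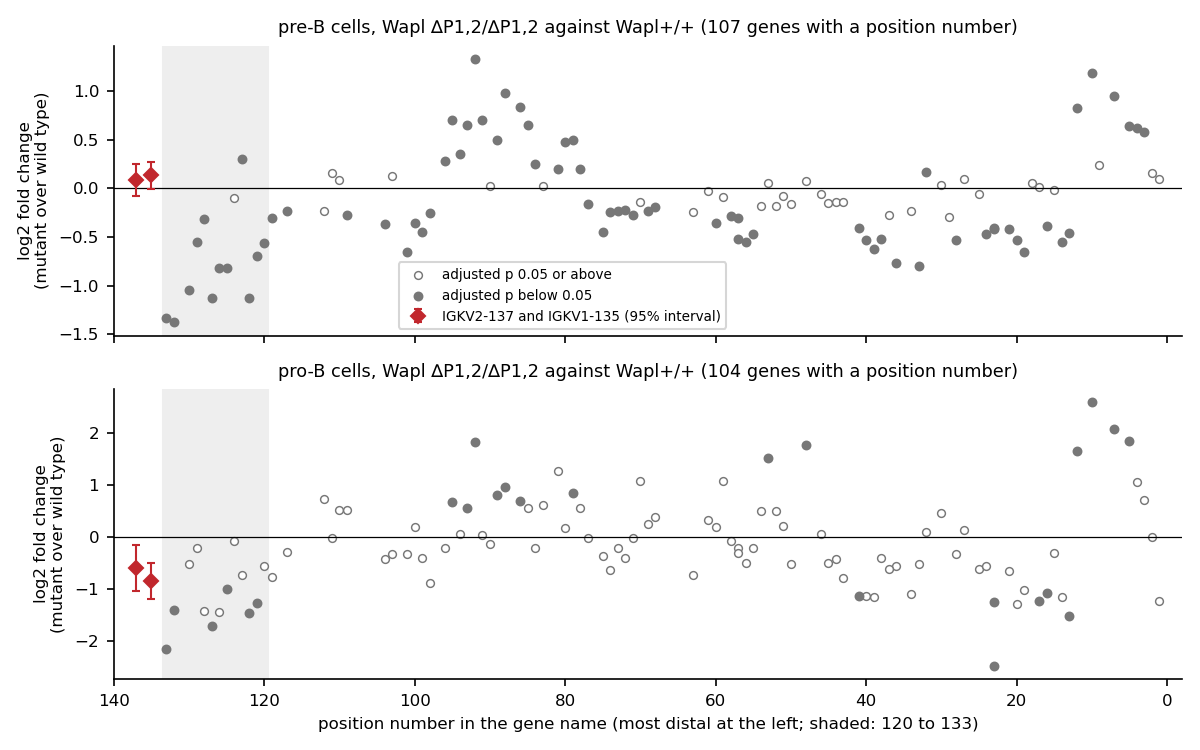
log2 fold change of the mutant over Wapl+/+ for each tested V kappa gene, ordered by the position number in its name with the J kappa side at the right, in pre-B (top) and pro-B cells (bottom). Filled points have a limma adjusted p below 0.05, diamonds are IGKV2-137 and IGKV1-135 with 95% intervals, and the shaded neighbours have medians of -0.81 in pre-B and -1.27 in pro-B cells.

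Measured as a ratio to the summed share of these neighbours, IGKV1-135 went from 0.403 ± 0.0329 (SD, n = 4) in Wapl+/+ to 0.756 ± 0.0895 (SD, n = 4) in mutant pre-B cells. The groups did not overlap (highest 0.433, lowest 0.649), and the exact two-sided permutation test gave p = 0.0286, the smallest allowed, and an adjusted p of 0.0433 over 8 such ratios. IGKV2-137 went from 0.0967 ± 0.00607 (SD, n = 4) to 0.176 ± 0.0180 (SD, n = 4) with the same p-values. The neighbours' own share, the denominator, was 11.0% ± 0.489 (SD, n = 4) in Wapl+/+ and 6.48% ± 0.408 (SD, n = 4) in mutant pre-B cells. Most of this denominator was picked out by the study on these libraries, and neither gene of the pair was itself called in pre-B cells. The p-values of the genotype ratios therefore do not test a change in the pair. In the pro-B libraries the denominator was 8.82% ± 1.45 (SD, n = 6) and 3.77% ± 0.867 (SD, n = 6), and the ratio of IGKV1-135 was 1.37 ± 0.630 (SD, n = 6) in Wapl+/+ and 1.75 ± 0.553 (SD, n = 6) in the mutant, which overlapped (exact two-sided permutation p = 0.258, adjusted p = 0.258). The Wapl+/+ libraries were between 0.912 and 1.42 except replicate 2, at 2.60, and the log2 difference between the genotypes was 0.38, against 0.59 without this library (exact permutation test, adjusted p = 0.0717) and 0.58 without mutant replicate 5 (exact permutation test, adjusted p = 0.0671). That of IGKV2-137 went from 0.167 ± 0.0232 (SD, n = 6) to 0.268 ± 0.106 (SD, n = 6, exact two-sided permutation p = 0.0325, adjusted p = 0.0433), a call that was lost on leaving out any single library except Wapl+/+ replicate 2 or mutant replicate 5. Between the stages, the ratio of IGKV1-135 in Wapl+/+ cells was higher in pro-B than in pre-B cells without overlap (exact two-sided permutation p = 0.00476, adjusted p = 0.0190), and it was also higher in mutant cells (exact two-sided permutation p = 0.0143, adjusted p = 0.0381). The ratio of IGKV2-137 differed between the stages in Wapl+/+ cells (exact two-sided permutation p = 0.00476, adjusted p = 0.0190) and missed the threshold in mutant cells (exact two-sided permutation p = 0.129, adjusted p = 0.147). With the denominator widened to position number 100 the pre-B groups still did not overlap, at most 0.216 against at least 0.271 for IGKV1-135 and at most 0.0519 against at least 0.0634 for IGKV2-137. Their exact two-sided permutation p stayed at 0.0286, the smallest allowed, and the adjusted p over the 8 ratios was 0.0762 because other ratios of the set had larger p-values, and both pro-B differences between the genotypes changed sign. Between the stages, IGKV2-137 in Wapl+/+ cells (log2 difference 0.36) and IGKV1-135 in mutant cells (0.23) were then no longer called, and IGKV2-137 in mutant cells turned to -0.40.

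The opposite end of the locus and the families of the pair are given beside it. Most of the opposite end was also picked out by the study on these libraries, so that its direction is not independent evidence. Of the 13 genes with position numbers from 1 to 12, next to J kappa, 6 of 9 tested genes were higher and none was lower in mutant pre-B cells (median log2 fold change 0.62), beside 21.5% of all tested genes called higher, and 4 of 8 were higher in mutant pro-B cells (median 1.35), beside 12.5%. Without Wapl+/+ pro-B replicate 2, 5 of 9 were higher and 1 was lower in mutant pro-B cells, beside 16.3% and 30.8% of all tested genes. Among the other V kappa 1 genes, the family of IGKV1-135, 5 of 7 tested genes were lower and 1, IGKV1-88, was higher in mutant pre-B cells, and 3 were lower and 1 higher in mutant pro-B cells. These counts stand beside 45.8% of all tested genes lower and 21.5% higher in pre-B and 13.5% lower and 12.5% higher in pro-B cells. In pro-B cells after centring, 1 V kappa 1 gene was lower and 2 were higher, beside 4.81% and 16.3% of all tested genes. As deposited, none was lower and 2 were higher in pro-B cells, beside 0.962% and 23.1%. Without Wapl+/+ pro-B replicate 2, 3 were lower and 2 higher, beside 30.8% and 16.3%. As deposited, 4 were lower in mutant pre-B cells, where 29.0% of all tested genes were. Of the other V kappa 2 genes, the family of IGKV2-137, 2 were tested, of which IGKV2-109 was called lower in mutant pre-B cells, though not after centring or as deposited, and none was called in pro-B cells. Between the Wapl+/+ stages, IGKV1-110 and IGKV1-117 were the V kappa 1 genes called higher in pro-B cells beside IGKV1-135, 2 of 7 tested where 10.5% of all tested genes were. After centring 3 of the 7 were higher (14.3% of all tested genes), and without pro-B replicate 2 there were 3 higher and 1 lower (14.2% and 27.4% of all tested genes).

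The ratio of both genes to each other separated the stages, a description for which no test was made. In pre-B cells IGKV1-135 was used 4.06 to 4.48 times as often as IGKV2-137 in all 8 libraries, with means of 4.16 ± 0.155 (SD, n = 4) in Wapl+/+ and 4.29 ± 0.141 (SD, n = 4) in the mutant. In pro-B cells the ratio ran from 5.16 to 13.0 in Wapl+/+ (mean 8.07 ± 2.78, SD, n = 6) and from 5.55 to 7.48 in mutant libraries (mean 6.66 ± 0.736, SD, n = 6). The value of 13.0 came from Wapl+/+ replicate 2, with its 2 steps of IGKV2-137. No pro-B library overlapped a pre-B library, whereas the genotypes overlapped at both stages.

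**Figure D4:**
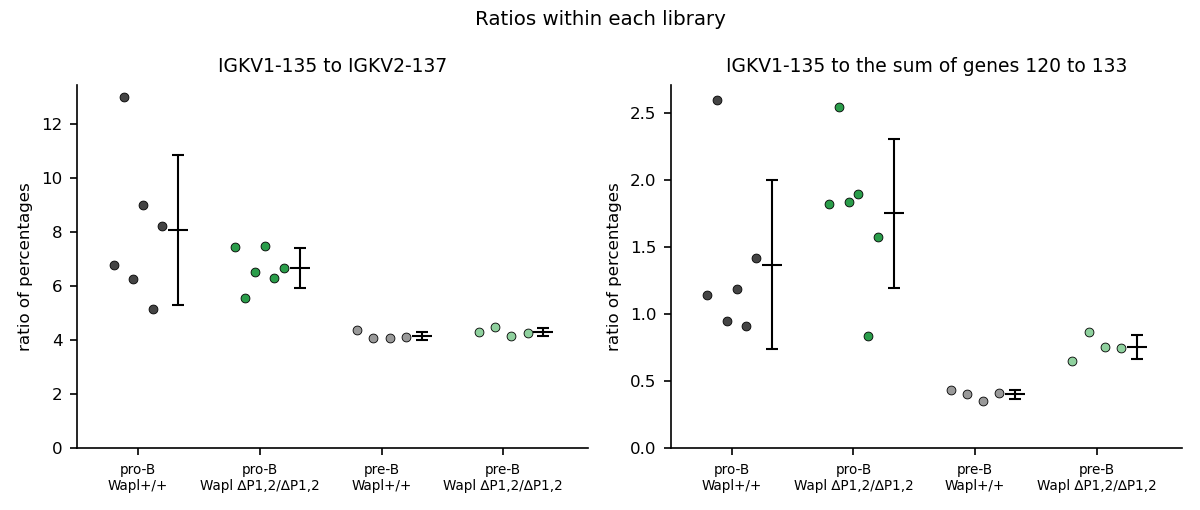
Ratio of the percentages of IGKV1-135 and IGKV2-137 (left) and of IGKV1-135 and the sum of its 15 neighbours (right), with 1 point per library and the mean ± SD. The left ratio is 4.06 to 4.48 in pre-B and at least 5.16 in pro-B libraries, and the right ratio separates the genotypes in pre-B cells, at most 0.433 against at least 0.649, but not in pro-B cells.

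Across all 20 libraries and 105 genes, the genes whose percentages went most with IGKV1-135 were IGKV15-103 (Pearson's r = 0.848), IGKV1-117 (0.766) and IGKV14-111 (0.692). Those most like IGKV2-137 were IGKV1-135 itself (0.605), IGKV9-123 (0.600) and IGKV3-1 (0.599), and in the reverse direction IGKV2-137 came at place 7. The libraries form 4 groups of unequal depth and share the denominator, so that these coefficients are descriptions. IGKV15-103 had means of 1.23%, 0.976%, 0.723% and 0.796% in Wapl+/+ pro-B, mutant pro-B, Wapl+/+ pre-B and mutant pre-B cells. IGKV19-93, the gene that took the first rank from IGKV1-135 in mutant pro-B cells, had 6.90%, 9.92%, 2.94% and 4.66% in the same order. It was higher in the mutant in pro-B cells (log2 fold change 0.56, limma adjusted p = 0.0384) and in pre-B cells (0.65, limma adjusted p = 6.18e-06).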

How the data were processed

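The authors prepared VDJ-seq libraries from sheared genomic DNA with adapters carrying UMI sequences, J kappa primer extension and paired-end MiSeq sequencing, and processed the data with a published pipeline and R 3.3.3. They deposited a percent value per V kappa gene and library, whose total is not given in the sources used here. The deposited score of the H3K27ac peak list is 0 throughout and was not used. The genome builds in the submitters' notes include mm9, to which the peak list belongs. For this report each Igk value was divided by the library's sum over all 163 V kappa genes and multiplied by 100. Depth in reads is not given in the sources used here, and the summed steps per library are stated above.

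Groups followed the labels. Genes with a mean of at least 0.05% in the libraries compared entered limma 3.58.1 (R 4.3.3, empirical Bayes with trend) on log2(percentage + 0.05), with Benjamini-Hochberg adjustment over all tested genes at 0.05. Members were also compared by exact permutation in Python 3.11.15 with numpy 2.4.6. Sequences were read from the NCBIM37 genome with the Gencode annotation, and V exons were aligned globally with Biopython 1.88. On simulated data with 30 changed genes, a log2 change of 1 was recovered for 30 in the pre-B, 14 in the pro-B, 5 in the Wapl+/+ stage and 23 in the mutant stage comparison, and a change of 2 for 30, 29, 22 and 28. No 2 libraries were identical, and the closest pair differed by 2.93% of the rearrangements.

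Named genes were the pair, the neighbours with the largest rise and fall in each genotype comparison, the 3 genes most correlated with each, and genes ranking above IGKV1-135 in the group means. IGKV6-23, IGKV10-95, IGKV1-110, IGKV1-88 and IGKV2-109 were named after their values were seen. The pair, the gene lists and the tests were chosen with earlier results of these data known. Alternatives covered the pseudocount, the filter, Holm adjustment, no logarithm, the series of experiment numbers as a covariate or alone, array weights, centring, another denominator, the deposited values, other neighbours and each library left out. Counts over the gene lists under other scales and without Wapl+/+ pro-B replicate 2 were added after seeing the data. Hi-C samples and Igh libraries were not used here.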

Additional observations from a re-analysis of the deposited data

Results flagged for a closer look

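The share of IGKV1-135 in Wapl+/+ pre-B replicate 3 was 4.16%, apart from the other libraries of its group, which lay between 4.50% and 4.56%. Dixon's test picked out this value alone among 8 groups of values, and chance picks out about 1 in 20. The genotype effect on IGKV1-135 differed between pro-B and pre-B cells by -0.98 on the log2 scale (limma interaction term, adjusted p = 0.0110; not called after centring, as deposited or in either series alone), with the share lower in 6 of 6 mutant pro-B libraries than in every Wapl+/+ pro-B library and higher in 3 of 4 mutant pre-B libraries than in every Wapl+/+ pre-B library. The same difference for IGKV2-137 was -0.69, which did not pass limma over all genes (adjusted p = 0.218). The exact permutation test (p = 0.00315) used arrangements that assume no stage difference in either genotype. It therefore does not test this difference alone. The larger V kappa total as deposited in mutant pro-B cells moved with both differences, and its part in them was not tested.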

How the results depend on the processing

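No paired analysis was possible because the labels give no replicate numbers. All values here are log2 differences unless named otherwise. With the values as deposited, the pro-B genotype effect became 0.32 for IGKV2-137 and 0.12 for IGKV1-135, the stage difference in Wapl+/+ cells to -5.00 and -4.18, that in mutant cells to -4.75 and -4.22 (both now called, the former without a change of sign), and the difference of the genotype effects to 0.19 and -0.046. Each of these changes came with the scale, on which the V kappa totals differ between groups. Centring on the library median gave, for IGKV2-137, -0.27 in pro-B (no longer called), 0.77 between the Wapl+/+ stages (called) and 0.33 between the mutant stages (turned), and for IGKV1-135 -0.52 in pro-B and -0.58 for the difference of the effects (both no longer called) and 0.94 between the mutant stages (called). For the remaining changes the cause was not tested. Array weights brought calls for IGKV1-135 in pre-B cells (0.15) and between the mutant stages (0.35), and for IGKV2-137 between the Wapl+/+ stages (0.52) and in the difference of the effects (-0.79). A denominator without IGKV19-93 and the other gene of the pair brought calls for IGKV1-135 in pre-B cells (0.16) and between the mutant stages (0.41) and for IGKV2-137 between the Wapl+/+ stages (0.60). Holm adjustment lost IGKV2-137 in pro-B cells (-0.61). In the earlier and later series alone, IGKV2-137 in pro-B cells was at -0.46 and -0.75 and the difference of the effects for IGKV1-135 at -0.93 and -1.04, none called, while IGKV1-135 in pro-B cells lost its call in the earlier series (-0.82) and kept it in the later.

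Neighbours from position number 100 on gave ratio differences of 0.52 and 0.56 in pre-B cells for IGKV2-137 and IGKV1-135 (groups still apart and the exact permutation p at its minimum, but not called after adjustment over 8 ratios), -0.25 and -0.47 in pro-B cells (turned), 0.36 for IGKV2-137 between the Wapl+/+ stages (no longer called), and -0.40 (turned) and 0.23 (no longer called) between the mutant stages.

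With single libraries left out, IGKV1-135 ran from 0.10 to 0.17 in pre-B cells, from -0.91 to -0.75 in pro-B cells, from 1.22 to 1.37 between the Wapl+/+ stages, from 0.27 to 0.43 between the mutant stages and from -1.05 to -0.88 for the difference of the effects. IGKV2-137 ran from 0.05 to 0.12, -0.72 to -0.53, 0.36 to 0.47, -0.38 to -0.20 and -0.80 to -0.62. Its ratio to the neighbours ran from 0.43 to 0.79 between the pro-B genotypes and from 0.35 to 0.70 between the mutant stages, where leaving out pro-B mutant replicate 5 brought a call.

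Counts of called genes moved more. In pre-B cells 72 became 44 by Holm. In pro-B cells 27 became 7 by Holm, 49 by array weights or without Wapl+/+ replicate 2, 16 without mutant replicate 2 and 0 in the earlier series alone (limma, 24 at an unadjusted p below 0.05). Between the Wapl+/+ stages 20 became 3 by Holm or with the series as covariate, 39 without a logarithm, 63 by array weights, 105 as deposited, 7 in the later series, 44 and 12 without pro-B replicates 2 and 4, and 6, 4, 3 and 3 without pre-B replicates 1 to 4. Between the mutant stages 54 became 27 by Holm, 19 with the series as covariate, 100 as deposited and 18 in the later series. For the difference of the effects 2 became 6 without a logarithm, 19 by array weights, 1 by centring, 10 without Wapl+/+ pro-B replicate 2, and 0 as deposited, in the earlier and in the later series (limma, 21, 6 and 8 at an unadjusted p below 0.05). The pro-B libraries held 164 to 4549 steps against 27178 to 56642 in pre-B cells, and the part of this gap in the moving counts was not tested.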

Other observations

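The spread of both genes between libraries differed between the stages. The SD of IGKV1-135 was 21.9% of its mean in Wapl+/+ pro-B and 20.3% in mutant pro-B cells, against 4.13% and 6.76% in the pre-B groups. For IGKV2-137 these values were 14.8% and 24.5% in pro-B and 3.81% and 6.52% in pre-B cells. The pro-B libraries held between 2 and 45 steps of IGKV2-137 and between 26 and 287 of IGKV1-135, and the pre-B libraries between 318 and 619 and between 1424 and 2581.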
